A study of Homo sapiens with 18 samples.

Results

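The WNT pathway genes described here were the rows of the deposited expression table whose symbol is WNT, FZD, DKK or SFRP followed by a number, together with 21 named symbols for the co-receptors, R-spondin receptors, receptor ubiquitin ligases, Dishevelled proteins, β-catenin destruction complex, TCF/LEF factors and the ligand secretion genes PORCN and WLS. That rule covers 58 symbols of the reference annotation, of which 46 had a row among the 16575 genes of the table. The rule uses gene symbols and no threshold on a measured value. The 12 symbols with no row were AXIN2, DKK2, DKK4, LEF1, SFRP4, WNT1, WNT2, WNT2B, WNT3, WNT8A, WNT8B and WNT9B, and they were not analysed here.

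Expression was measured by CAGE-seq, cap analysis of gene expression, which sequences a tag from the capped 5′ end of each transcript. The tags of a gene are summed and scaled to the sequencing depth of the library as CPM, the fraction of tags multiplied up by the same constant in every library, and because a transcript yields a tag from its 5′ end alone, levels of different genes can be set side by side without a correction for length. The 18 libraries came from the established bladder carcinoma lines CAL-29, HT-1376 and RT-112 (3 in all), all of them carried through successive stable lentiviral transductions with drug selection after each. The variants are named by the vectors of the first and the second transduction: KK received blank vectors both times, KA a blank and then AP-2α, KC a blank and then AP-2γ, WK WWOX and then a blank, WA WWOX and then AP-2α, and WC WWOX and then AP-2γ. Every library, controls included, therefore comes from virus-treated and drug-selected cells. Puromycin was used for the WWOX step and G418 for the AP-2 step. Each variant of each line was sequenced as 1 library. The 6 libraries of a line are thus derivatives of 1 line and not separate isolates. The study grew RT-112 in RPMI medium and the other lines in DMEM. Contrasts with RT-112 therefore also differ in medium, and the part of the medium in them was not tested.

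In the canonical WNT pathway, secreted lipid-modified WNT ligands bind Frizzled receptors with LRP5 or LRP6, and Dishevelled proteins then recruit the AXIN, APC and GSK3 complex away from β-catenin, which accumulates and acts with TCF/LEF factors in the nucleus. Dickkopf and secreted Frizzled-related proteins oppose the ligands outside the cell, while R-spondins, through LGR receptors, keep the ubiquitin ligases RNF43 and ZNRF3 from removing Frizzled from the surface. Other ligands, WNT5A and WNT11 among them, are best known for β-catenin-independent signalling in cell polarity and movement. In the bladder, WNT ligands take part in epithelial growth and in the exchange between urothelium and stroma.

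The libraries held between 13357102 and 17958572 reads on genes, and 3 reads, taken as the floor of detection, corresponded to 0.158 to 0.213 CPM. Epithelial markers summed to 4674 to 25691 CPM and urothelial markers to 419 to 2437 CPM in every library, whereas stromal markers, 4 of 6 with a row, summed to 3.44 to 59.5 CPM, the single immune marker of 5 with a row stayed at or below 0.5 CPM and the single endothelial marker of 4 at 0.05 to 5.07 CPM. The urothelial markers were not alike within the sum. In HT-1376 FOXA1, KRT20, UPK1A and UPK3A did not pass 0.14 CPM, UPK2 0.79 CPM and KRT13 1.15 CPM. UPK1B (269 to 946 CPM), GATA3 (73.8 to 243 CPM) and TP63 (48.9 to 106 CPM) were the highest there, and PPARG, UPK3B and KRT5 lay between 0.2 and 48.9 CPM. In RT-112 KRT20 and UPK3A did not pass 0.37 CPM. The WWOX gene was not higher in the libraries labelled with the WWOX vector in RT-112, where it lay at 18.5 to 22.3 CPM against 23.5 to 26.0 CPM in the libraries without it, or in HT-1376, where it lay at 18.6 to 23.1 CPM against 16.95 to 24.7 CPM. In CAL-29 it was highest in WK, at 155 CPM, and the other libraries apart from KC lay between 51.3 and 69.3 CPM. A vector transcript need not be assigned to the gene in a CAGE table, so this is a limited check, and directions given for WWOX below refer to the labels. The study reports Western blots of WWOX and the AP-2 factors as its check of the transductions, and protein was not examined here. TFAP2A, which encodes AP-2α, was higher in the RT-112 libraries labelled with it (KA 46.8 and WA 25.3 CPM) than in the others (18.01 to 21.2 CPM). In HT-1376 it was highest in KA (101 CPM), but WA (69.9 CPM) lay within the range of the other libraries (56.0 to 76.9 CPM), and in CAL-29 KA (49.9 CPM) lay below WK (61.7 CPM) and WA was highest (86.7 CPM). TFAP2C, which encodes AP-2γ, measured 264 and 143 CPM in RT-112 KC and WC, but it was also high in RT-112 WA, labelled AP-2α, at 179.9 CPM against 49.4 to 58.0 CPM in KK, KA and WK. In HT-1376 it measured 214 and 163 CPM in KC and WC, and KA, without this vector, had 172 CPM, while in CAL-29 it measured 339 CPM in WC and 70.3 to 93.1 CPM in the libraries without the vector. In matched pairs TFAP2A was higher in the library labelled AP-2α in 5 of 6, TFAP2C in the one labelled AP-2γ in 5 of 5 and WWOX in the one labelled WWOX in 3 of 8. Directions given for AP-2α and AP-2γ below likewise refer to the labels.

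The library labelled CAL-29 KC stands apart and is shown separately. Genes with at least 20 CPM in the KK library of 1 line and less than 0.5 CPM in KK of both other lines were counted as present where they reached 10% of that level. In CAL-29 KC 46 of the 47 such genes of HT-1376 were present, compared with 7 of the 68 of CAL-29. Comparisons between lines and within lines were fitted without it, over 17 libraries, and the comparisons of variants across lines are given with it and without it.

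Of the 46 genes with a row, 35 reached 5 CPM in at least 1 library and were tested. The 11 that did not were FZD4, FZD9, LGR5, LGR6, TCF7, WNT10B, WNT3A, WNT5B, WNT6, SFRP1 and SFRP5. A gene present in 1 line alone passes this filter because it is different, so counts among the 35 describe them and are read only beside the share of all 13022 tested genes. Counts at an unadjusted p, given further below, have no such share beside them and are not read as results about the members. The tested genes comprised 8 of 12 ligands, 8 of 10 Frizzled receptors, 1 of 3 R-spondin receptors, 2 of 3 TCF/LEF factors, 1 of 3 secreted Frizzled-related proteins and every listed member of the other roles.

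The promoters of 6 members are printed because their genes carry the contrasts described below. DKK1, WNT5A, WNT16 and TCF7L1 were among the members with their highest level in CAL-29, and WNT4 and FZD5 were called for WWOX in HT-1376. The sequences are the 250 bases before the gene start in RefSeq on GRCh38.p14, read 5′ to 3′ on the strand of the gene. Capitals mark matches on either strand to the TATA box, searched with the letters TATAAA, to the box bound by nuclear factor Y, searched with CCAAT, to the AP-2 motif, searched with GCCNNNGGC, or to the TCF/LEF motif, searched with ATCAAAG. The DKK1 window lies at chr10:52314031-52314280 on the + strand and overlaps an exon of PRKG1-AS1, an antisense RNA gene. The WNT5A window lies at chr3:55487307-55487556 on the − strand and overlaps an exon of WNT5A itself in GENCODE release 44. The WNT16 window lies at chr7:121328750-121328999 on the + strand, within an intron of a longer WNT16 transcript. The TCF7L1 window lies at chr2:85133142-85133391 on the + strand and the FZD5 window at chr2:207769907-207770156 on the − strand, and neither overlaps an annotated gene. The WNT4 window lies at chr1:22143098-22143347 on the − strand, within the span of WNT4 but outside its exons.
DKK1: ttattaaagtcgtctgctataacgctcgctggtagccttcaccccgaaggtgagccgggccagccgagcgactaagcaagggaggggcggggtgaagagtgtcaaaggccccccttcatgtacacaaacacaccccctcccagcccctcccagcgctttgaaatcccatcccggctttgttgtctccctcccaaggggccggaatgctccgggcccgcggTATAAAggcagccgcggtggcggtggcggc
WNT5A: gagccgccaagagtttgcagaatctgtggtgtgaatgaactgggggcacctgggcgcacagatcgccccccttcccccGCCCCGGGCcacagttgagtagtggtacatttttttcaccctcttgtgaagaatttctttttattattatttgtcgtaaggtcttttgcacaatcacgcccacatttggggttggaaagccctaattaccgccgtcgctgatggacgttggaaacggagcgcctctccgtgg
WNT16: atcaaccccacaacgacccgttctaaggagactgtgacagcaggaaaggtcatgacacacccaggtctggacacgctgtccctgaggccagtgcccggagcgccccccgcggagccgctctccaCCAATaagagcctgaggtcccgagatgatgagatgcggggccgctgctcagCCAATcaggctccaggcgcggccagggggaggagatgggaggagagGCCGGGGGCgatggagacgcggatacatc
TCF7L1: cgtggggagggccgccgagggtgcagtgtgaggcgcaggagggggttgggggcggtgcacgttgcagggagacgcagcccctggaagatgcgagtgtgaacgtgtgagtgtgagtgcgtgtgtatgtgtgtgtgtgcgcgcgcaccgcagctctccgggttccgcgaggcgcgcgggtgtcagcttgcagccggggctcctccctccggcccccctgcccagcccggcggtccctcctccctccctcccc
WNT4: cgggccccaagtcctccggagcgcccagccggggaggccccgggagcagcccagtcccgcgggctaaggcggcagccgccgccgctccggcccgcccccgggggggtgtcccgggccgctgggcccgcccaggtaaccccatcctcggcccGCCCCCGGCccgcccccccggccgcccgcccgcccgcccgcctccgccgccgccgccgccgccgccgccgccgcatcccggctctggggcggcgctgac
FZD5: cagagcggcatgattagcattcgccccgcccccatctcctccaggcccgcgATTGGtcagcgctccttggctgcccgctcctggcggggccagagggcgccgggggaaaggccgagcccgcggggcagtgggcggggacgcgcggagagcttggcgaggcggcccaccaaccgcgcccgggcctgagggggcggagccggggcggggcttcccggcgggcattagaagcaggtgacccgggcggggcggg

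The DKK1 window held a TATA box that begins 30 bases before the start, while the WNT16 window held 2 CCAAT boxes and 1 AP-2 motif. Single AP-2 motifs stood in the WNT5A and WNT4 windows, and 1 CCAAT box, on the opposite strand, in the FZD5 window. Over the 300-base entries of all promoters, which also hold 50 bases after the start, 10.7% of 35116 held the TATA box letters, 32.01% those of the CCAAT box, 19.8% those of the AP-2 motif and 2.26% those of the TCF/LEF motif. Promoter entries existed for 33 of the 46 genes, and 3, 12, 13 and 0 of these held the respective motif. The member promoters had a median GC content of 70.8% and 24 CG pairs, against 58% and 11 over all entries. A match is a description of letters and not a bound site.

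**Figure D1:**
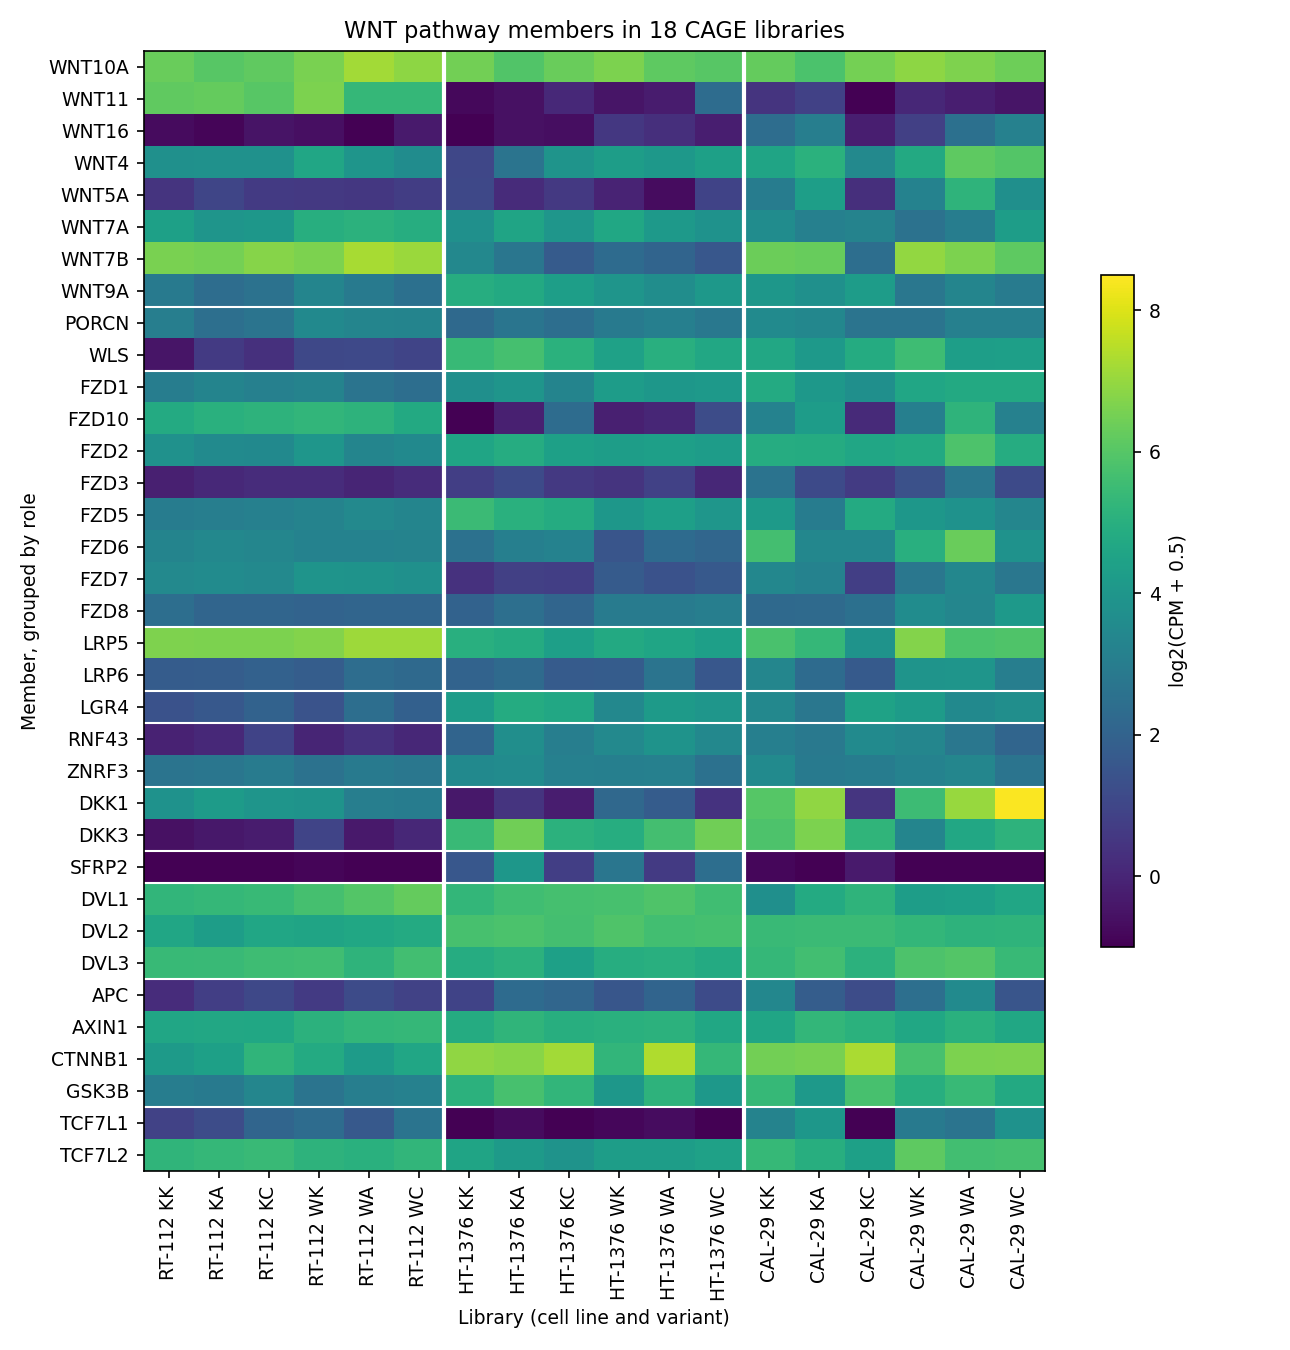
Level of the 35 tested WNT pathway genes (rows, grouped by role) in 18 CAGE libraries (columns, 6 variants of each line), as log2(CPM + 0.5) by colour from -1 to 8.5. WNT11 is bright in the 6 RT-112 libraries alone, DKK3 and WLS are dark there, and the CAL-29 KC column resembles the HT-1376 block for DKK1, WNT7B and TCF7L1.

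The first question was how the 3 lines, which the study used as replicates of each variant, differ in their WNT pathway genes. Differences were tested with limma on log2(CPM + 0.5), with the variant as a term and Benjamini-Hochberg adjustment over all tested genes, and a gene was called at an adjusted p under 0.05. Between RT-112 and HT-1376, 22 of the 35 members were called, 9 higher and 13 lower in RT-112, against 61.9% of all genes (19.2% higher and 42.7% lower). Between CAL-29 and HT-1376, 23 were called, 17 higher and 6 lower in CAL-29, against 61.0% of all genes (43.4% higher and 17.6% lower). Between RT-112 and CAL-29, 25 were called, 6 higher and 19 lower in RT-112, against 71.5% of all genes (15.3% higher and 56.2% lower). The members' shares of 62.9%, 65.7% and 71.4% were thus close to the background in each pair. The lines are bulk cultures, so fewer cells that express a gene and less RNA per cell cannot be told apart.

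The direction of small differences depended on the scaling. With the CPM as deposited, the median difference over all genes was -0.43, 0.47 and -0.84 (log2) in these pairs, and over the members -0.01, 0.49 and -0.93. TMM scaling, which sets the bulk of genes equal between libraries, moved the medians over all genes to -0.06, 0.11 and -0.13, and the calls among members to 13 higher and 11 lower, 13 higher and 9 lower, and 12 higher and 16 lower. Of the called members, 1 changed sign under TMM scaling. This was DVL2 between RT-112 and CAL-29, from -0.71 to 0.07 and no longer called. The largest differences, given next, exceeded the shift in scale several times over and kept their direction and their call under every alternative tried (126 refits of 18 values).

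Among the ligands, WNT10A was abundant in all lines and WNT7B and WNT11 set them apart. WNT10A, known for its role in teeth and skin appendages, had a median of 88.3 CPM in RT-112 (65.1 to 146), 74.7 CPM in HT-1376 (60.7 to 97.0) and 83.5 CPM in CAL-29 (56.2 to 119), and was called in none of the pairs at the deposited scale. Under TMM scaling it was 0.69 (log2) higher in RT-112 than in HT-1376 and 0.94 higher than in CAL-29, both called.

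WNT7B, a canonical ligand of epithelia located at chr22:45920366-45977162 (hg38, − strand), ran from 91.6 to 153 CPM in RT-112 with a median of 104 CPM. In HT-1376 it ran from 2.52 to 10.2 CPM with a median of 4.06 CPM. In the CAL-29 libraries KK, KA, WK, WA and WC it measured 81.8, 78.4, 124, 97.8 and 69.6 CPM, and CAL-29 KC had 4.95 CPM. HT-1376 was thus low in every library, without overlap with either other line. The log2 difference was 4.51 ± 0.27 (SE) for RT-112 against HT-1376, with a limma Benjamini-Hochberg adjusted p of 7.84e-09, and 4.11 ± 0.29 for CAL-29 against HT-1376, with an adjusted p of 5.78e-08.

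WNT11 (chr11:76186325-76210736, − strand), a ligand known from convergent extension and kidney branching, was the member with the largest difference between RT-112 and either other line. It ran from 39.2 to 97.8 CPM in RT-112 with a median of 68.3 CPM, from 0.07 to 4.6 CPM in HT-1376 with a median of 0.275 CPM, and measured 0.84, 1.27, 0.55, 0.38 and 0.22 CPM in CAL-29 KK, KA, WK, WA and WC. The RT-112 libraries lay far above all others, none of which reached 5 CPM. RT-112 exceeded HT-1376 by 5.90 ± 0.47 (log2, limma, adjusted p = 1.63e-07) and CAL-29 by 5.81 ± 0.51 (adjusted p = 4.72e-07). Within RT-112, WA and WC had the lowest levels, 39.4 and 39.2 CPM, against 65.0 to 97.8 CPM in the other 4 libraries.

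WNT5A, WNT16 and WNT4 were higher in CAL-29 than in both other lines. WNT5A, the standard non-canonical ligand, measured 7.4, 19.4, 8.84, 35.7 and 12.8 CPM in CAL-29 KK, KA, WK, WA and WC, and stayed between 0.83 and 1.47 CPM in RT-112 and between 0.13 and 1.58 CPM in HT-1376. CAL-29 exceeded HT-1376 by 3.58 ± 0.41 (log2, limma, adjusted p = 6.55e-06), and RT-112 fell below CAL-29 by a similar amount, -3.27 ± 0.41 (adjusted p = 9.57e-06). WNT16, studied mainly in bone and in haematopoietic development, measured 4.76, 7.91, 1.22, 5.18 and 8.6 CPM in the same 5 CAL-29 libraries. It did not pass 0.97 CPM in HT-1376 or 0.3 CPM in RT-112, and differed by -3.03 ± 0.41 between RT-112 and CAL-29 (limma, adjusted p = 2.14e-05). CAL-29 WK was the lowest of these 5 for WNT16, still above every library of the other lines at the deposited scale. The gap was narrow, at 1.22 CPM (22 reads, TMM factor 1.32) against 0.97 CPM (17 reads, factor 0.944) in HT-1376 WK. WNT4, a ligand of kidney and female genital tract development, ran from 22.7 to 70.6 CPM in CAL-29. At the deposited scale this was above HT-1376 (1.51 to 20.4 CPM) and overlapped RT-112 (11.8 to 24.3 CPM). CAL-29 exceeded HT-1376 by 1.95 ± 0.42 (log2, limma, adjusted p = 0.00125), and RT-112 against CAL-29 gave -1.42 ± 0.42 (adjusted p = 0.00729), which TMM scaling reduced to -0.65 and did not call.

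Summed over the 12 ligands with a row, RT-112 carried 271 to 401 CPM, CAL-29 without KC 220 to 334 CPM and HT-1376 120 to 162 CPM. In RT-112 the median shares of this sum were 35.9% for WNT7B, 26.9% for WNT10A and 23.4% for WNT11. HT-1376 drew a median of 58.6% from WNT10A alone, followed by WNT9A (13.8%), WNT7A (12.7%) and WNT4 (11.3%), with WNT7B at 2.89%. CAL-29 resembled RT-112 in WNT7B (35.7%) and WNT10A (31.4%) but had WNT4 (15.2%) and WNT5A (4.82%) in place of WNT11 (0.186%). The 3 ligands WNT7B, WNT10A and WNT11 together made up 80.4% to 85.8% of the sum in RT-112, against 54.0% to 68.2% of it in HT-1376 and 57.6% to 82.7% of it in CAL-29.

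**Figure D2:**
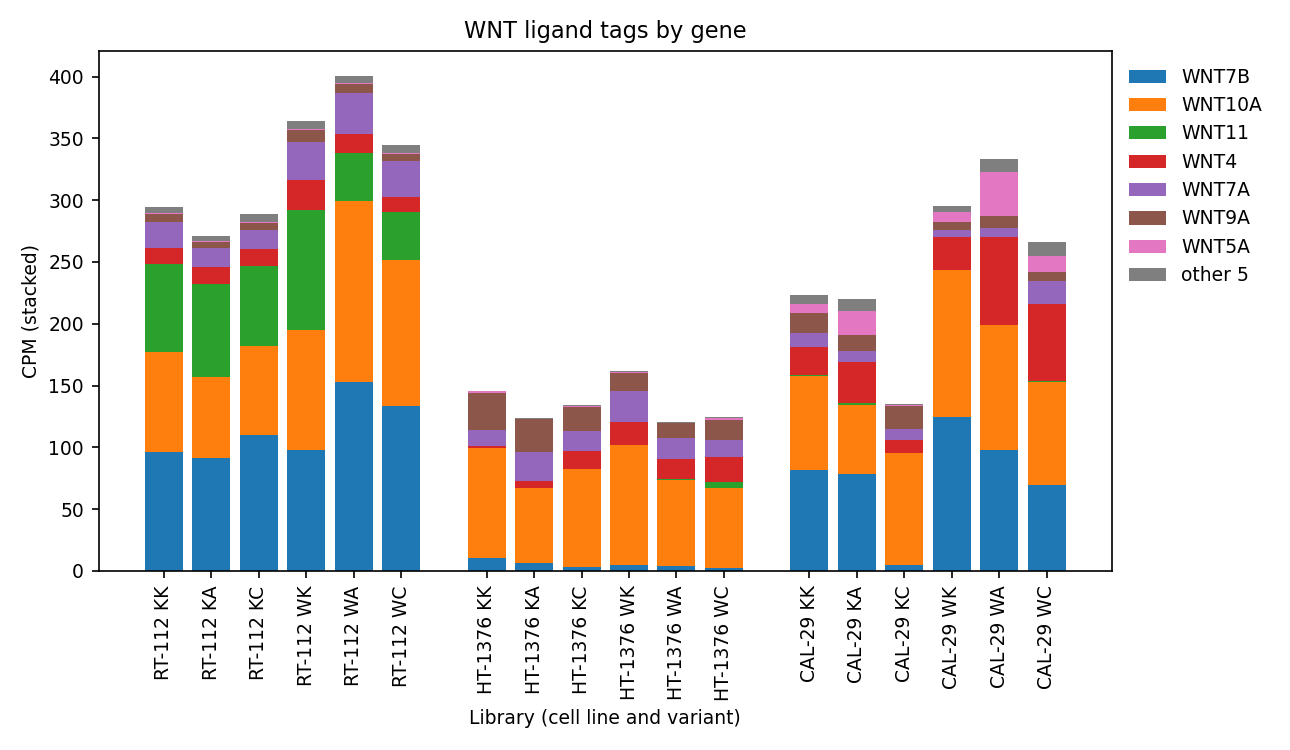
CPM of the WNT ligands stacked by gene (vertical axis) in each library (horizontal axis), with the 5 least abundant ligands summed as other. WNT11 contributes visibly in RT-112, WNT10A is the tallest block of each HT-1376 bar, and the CAL-29 KC bar lacks the WNT7B block of 69.6 to 124 CPM that the other CAL-29 libraries have.

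Of the ligand secretion genes WLS set RT-112 apart. WLS (chr1:68098473-68233120, − strand), the carrier that brings lipid-modified WNT proteins to the cell surface, ran from 0.22 to 1.62 CPM in RT-112 and from 21.4 to 51.0 CPM in HT-1376, and measured 25.6, 17.03, 45.8, 19.6 and 20.2 CPM in CAL-29 KK, KA, WK, WA and WC. RT-112 was below every library of the other lines. RT-112 differed from HT-1376 by -4.46 ± 0.33 (log2, limma, adjusted p = 6.80e-08) and from CAL-29 by -3.99 ± 0.35 (adjusted p = 5.00e-07). PORCN, the acyltransferase that adds the lipid, lay between 4.21 and 11.3 CPM over the 17 libraries and was called in none of the pairs at the deposited scale. TMM scaling called it 0.73 (log2) higher in RT-112 than in HT-1376 and 0.68 higher than in CAL-29.

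Among the Frizzled receptors at the deposited scale, FZD10 and FZD7 had their highest medians in RT-112, FZD5 in HT-1376, and FZD1, FZD2, FZD3, FZD6 and FZD8 in CAL-29. Under TMM scaling CAL-29 exceeded HT-1376 by 0.29 (log2) in FZD1, 0.20 in FZD2 and 0.14 in FZD8, none of them called. FZD3 (0.86) and FZD6 (2.08) were called in that pair under TMM scaling. FZD10 (chr12:130162459-130165740, + strand) ran from 26.6 to 37.9 CPM in RT-112 and from 0 to 4.61 CPM in HT-1376, where 4 of 6 libraries were at or below 0.51 CPM. In CAL-29 it measured 8.69, 18.6, 8.12, 35.7 and 8.6 CPM in KK, KA, WK, WA and WC. RT-112 exceeded HT-1376 by 4.65 ± 0.41 (log2, limma, adjusted p = 4.19e-07) and CAL-29 exceeded HT-1376 by 3.62 ± 0.44 (adjusted p = 1.26e-05). FZD7 ran from 10.7 to 14.7 CPM in RT-112, from 0.79 to 2.81 CPM in HT-1376 and from 6.3 to 9.93 CPM in CAL-29, 3 ranges without overlap.

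At the deposited scale summed Frizzled tags were closer between lines than ligand tags, at 79.6 to 99.2 CPM in RT-112, 69.0 to 95.9 CPM in HT-1376 and 96.3 to 240 CPM in CAL-29. The makeup was not alike. In RT-112 the largest median share belonged to FZD10 (37.6%), in HT-1376 to FZD5 (30.1%) and FZD2 (26.6%), and in CAL-29 to FZD6 (24.7%) and FZD2 (23.7%).

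Of the co-receptors, LRP5 was the more abundant in every library. It ran from 97.5 to 138 CPM in RT-112, from 19.9 to 31.7 CPM in HT-1376 and from 39.5 to 106 CPM in CAL-29, and was called higher in RT-112 than in HT-1376 by 2.16 (log2) and than in CAL-29 by 0.96. LRP6 ran from 2.94 to 4.7 CPM in RT-112, from 2.47 to 5.82 CPM in HT-1376 and from 4.53 to 14.9 CPM in CAL-29. The receptor turnover genes LGR4 and RNF43 were lower in RT-112 than in the other lines. At the deposited scale CAL-29 and HT-1376 were not called apart in either gene. TMM scaling called LGR4 lower in CAL-29 than in HT-1376 (limma, adjusted p = 0.009414) and left RNF43 uncalled in that pair. LGR4, an R-spondin receptor, ran from 2.16 to 4.92 CPM in RT-112. At the deposited scale this was below every library of HT-1376 (10.4 to 28.0 CPM) and of CAL-29 (6.3 to 18.1 CPM). RNF43 (chr17:58353676-58417595, − strand), which marks Frizzled for removal, ran from 0.44 to 1.39 CPM in RT-112, from 3.68 to 14.2 CPM in HT-1376 and from 3.82 to 9.72 CPM in CAL-29. RT-112 fell below HT-1376 in RNF43 by 3.04 on the log2 scale (SE 0.30, limma, adjusted p = 1.19e-06), while its relative ZNRF3 was called in none of the pairs.

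The secreted inhibitors divided the lines in a different way for each gene. DKK1 (chr10:52314281-52318042, + strand), which blocks LRP5 and LRP6, measured 62.7, 121, 45.4, 129 and 346 CPM in CAL-29 KK, KA, WK, WA and WC, ran from 7.48 to 18.3 CPM in RT-112 and stayed between 0.26 and 4.07 CPM in HT-1376. The 3 ranges did not overlap. CAL-29 exceeded HT-1376 by 6.02 ± 0.55 (log2, limma, adjusted p = 8.73e-07), the largest difference of any member in that pair, and RT-112 lay below CAL-29 by -3.06 ± 0.55 (adjusted p = 0.000227).

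DKK3 (chr11:11956207-12009769, − strand), a divergent member of the Dickkopf family, showed another order. It ran from 0.17 to 1.42 CPM in RT-112 and from 29.6 to 86.3 CPM in HT-1376, and measured 57.4, 97.7, 9.5, 25.6 and 35.1 CPM in CAL-29 KK, KA, WK, WA and WC. In RT-112 it had 3 to 9 reads in 5 libraries and 26 reads in WK, below every library of the other lines, with differences of -5.77 ± 0.44 against HT-1376 (log2, limma, adjusted p = 8.67e-08) and -5.16 ± 0.47 against CAL-29 (adjusted p = 6.31e-07). SFRP2, a secreted Frizzled-related protein, was found in HT-1376, at 2.5, 15.8, 1.21, 6.14, 1.02 and 4.93 CPM in KK, KA, KC, WK, WA and WC. It did not pass 0.06 CPM in RT-112 or in the 5 CAL-29 libraries, and CAL-29 against HT-1376 gave -3.12 ± 0.43 (limma, adjusted p = 4.14e-05), a fitted value that depends on the pseudocount.

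**Figure D3:**
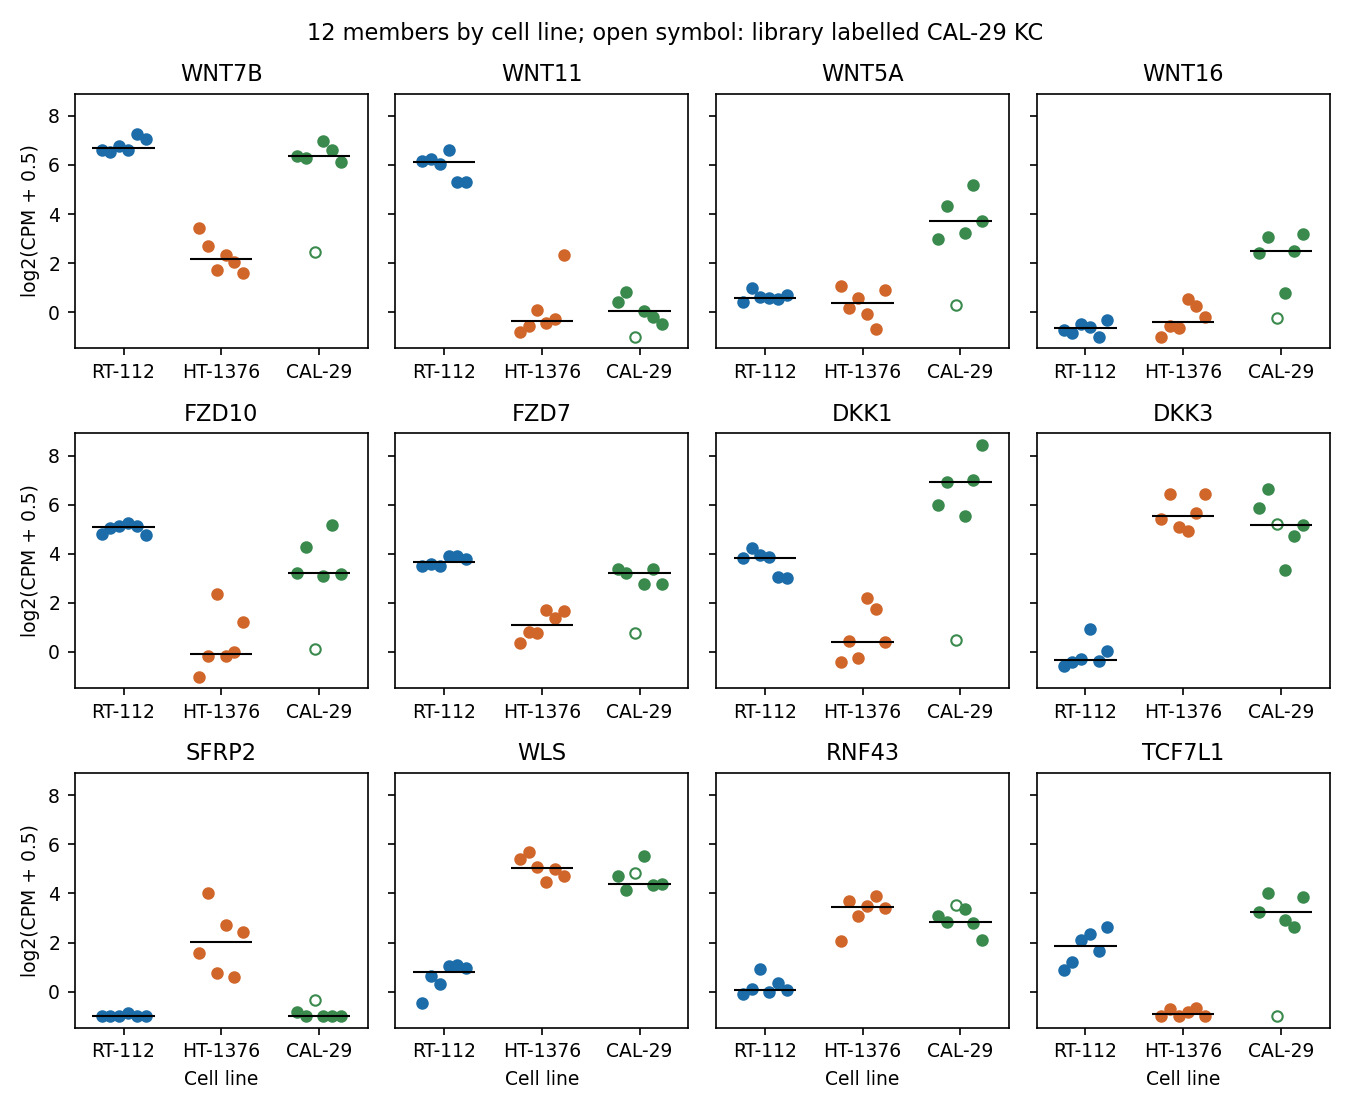
Level of 12 members as log2(CPM + 0.5) (vertical axis) by line (horizontal axis), 1 point a library in the order KK, KA, KC, WK, WA and WC, with the median of the filled points as a line and the library labelled CAL-29 KC as an open symbol left out of the median. The open symbol sits with the HT-1376 points for WNT7B, WNT5A, FZD10, DKK1 and TCF7L1.

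Inside the cell CTNNB1, GSK3B, APC and DVL2 were called lower in RT-112 than in both other lines, APC and DVL2 under TMM scaling in 1 of the pairs alone, whereas AXIN1, DVL1, DVL3 and TCF7L2 were not. CTNNB1, which encodes β-catenin, ran from 17.7 to 36.4 CPM in RT-112, from 37.6 to 167 CPM in HT-1376 and from 53.2 to 100.1 CPM in CAL-29. GSK3B, the kinase that marks β-catenin for destruction, ran from 5.76 to 9.83 CPM in RT-112, from 15.8 to 52.3 CPM in HT-1376 and from 16.9 to 42.1 CPM in CAL-29. At the deposited scale no RT-112 library overlapped the other lines in either gene. For CTNNB1 the gap was narrow, 36.4 CPM in RT-112 KC against 37.6 CPM in HT-1376 WK. RT-112 was called lower by 1.85 to 1.97 (log2 differences of -1.91 and -1.85 against HT-1376 and -1.97 and -1.97 against CAL-29). Under TMM scaling these became -1.51 and -1.47 against HT-1376 and -1.20 and -1.22 against CAL-29, all called. APC was also lowest in RT-112 by its median, 1.27 CPM against 3.03 CPM in HT-1376 and 5.08 CPM in CAL-29, whereas the scaffold AXIN1 ran from 23.3 to 39.8 CPM over all 17 libraries and was called in none of the pairs at the deposited scale. TMM scaling called AXIN1 0.91 (log2) higher in RT-112 than in CAL-29 and -0.52 in CAL-29 against HT-1376.

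Dishevelled genes relay the receptor signal. DVL3 was higher in RT-112 than in HT-1376, by 0.61 (log2, called). DVL1 was lowest in CAL-29, at 12.7 to 27.4 CPM against 37.6 to 76.6 CPM in RT-112 and 38.7 to 58.6 CPM in HT-1376. Of the TCF/LEF factors TCF7L2 was the more abundant, at 32.6 to 43.0 CPM in RT-112, 14.3 to 22.9 CPM in HT-1376 and 30.6 to 70.7 CPM in CAL-29, and was called higher in RT-112 than in HT-1376 by 0.97 (log2). TCF7L1 (chr2:85133392-85310387, + strand), which acts largely as a repressor, was close to absent from HT-1376, where it had 0, 2, 0, 1, 2 and 0 reads. It measured 8.97, 15.8, 7.02, 5.78 and 14.0 CPM in CAL-29 KK, KA, WK, WA and WC and ran from 1.33 to 5.73 CPM in RT-112. CAL-29 exceeded HT-1376 by 4.22 ± 0.33 (log2, limma, adjusted p = 1.71e-07), a fitted value that depends on the pseudocount.

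Other genes of the pathway, in 3 lists, were read beside the members. Of 38 tested canonical regulators, 9 were higher and 15 lower in RT-112 than in HT-1376, 19 higher and 8 lower in CAL-29 than in HT-1376, and 8 higher and 22 lower in RT-112 than in CAL-29. These were 63.2%, 71.1% and 78.9% of the list, beside 61.9%, 61.0% and 71.5% of all genes. CXXC5, a Dishevelled-binding protein, had the largest difference and was higher in CAL-29 than in HT-1376 by 4.93 (log2) and in RT-112 by 4.80. Of 18 tested planar polarity and non-canonical genes, 6 were higher and 4 lower, 9 higher and 2 lower, and 3 higher and 9 lower in the same pairs, or 55.6%, 61.1% and 66.7%. The ROR2 receptor of WNT5A was lower in RT-112 than in CAL-29 by a difference of -4.97 (log2), and VANGL2, a core polarity protein, by -4.51. ROR2 did not pass 0.22 CPM in RT-112 and VANGL2 had 0 CPM there, so these fitted values depend on the pseudocount. Of 18 tested genes known as canonical targets, 6 were higher and 7 lower, 9 higher and 3 lower, and 2 higher and 8 lower, or 72.2%, 66.7% and 55.6%. BAMBI and MMP7 were higher in CAL-29 than in HT-1376 by 5.36 and 4.43, and CDX2 was higher in RT-112 than in HT-1376 by 3.69. MMP7 and CDX2 did not pass 0.06 and 0.19 CPM in HT-1376, so their values also depend on the pseudocount. Under TMM scaling the regulators split into 14 higher and 9 lower, 14 higher and 9 lower, and 14 higher and 18 lower, the polarity genes into 9 and 3, 8 and 3, and 4 and 7, and the targets into 7 and 6, 8 and 4, and 4 and 7.

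The library labelled CAL-29 KC was compared with each line over the 23 members called between CAL-29 and HT-1376, a set fitted without it. It lay nearer to the HT-1376 median for 21 of the 23 and within the HT-1376 range for 17, compared with 2 within the CAL-29 range. DKK1 had 0.89 CPM there against at least 45.4 CPM in the other CAL-29 libraries, WNT7B 4.95 CPM against at least 69.6 CPM, and TCF7L1 no read against at least 5.78 CPM. SFRP2 at 0.3 CPM and WNT7A at 9.0 CPM were the 2 members nearer to CAL-29. The values of this library thus go against its line label for most members, and what gave rise to this was not tested.

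**Figure D4:**
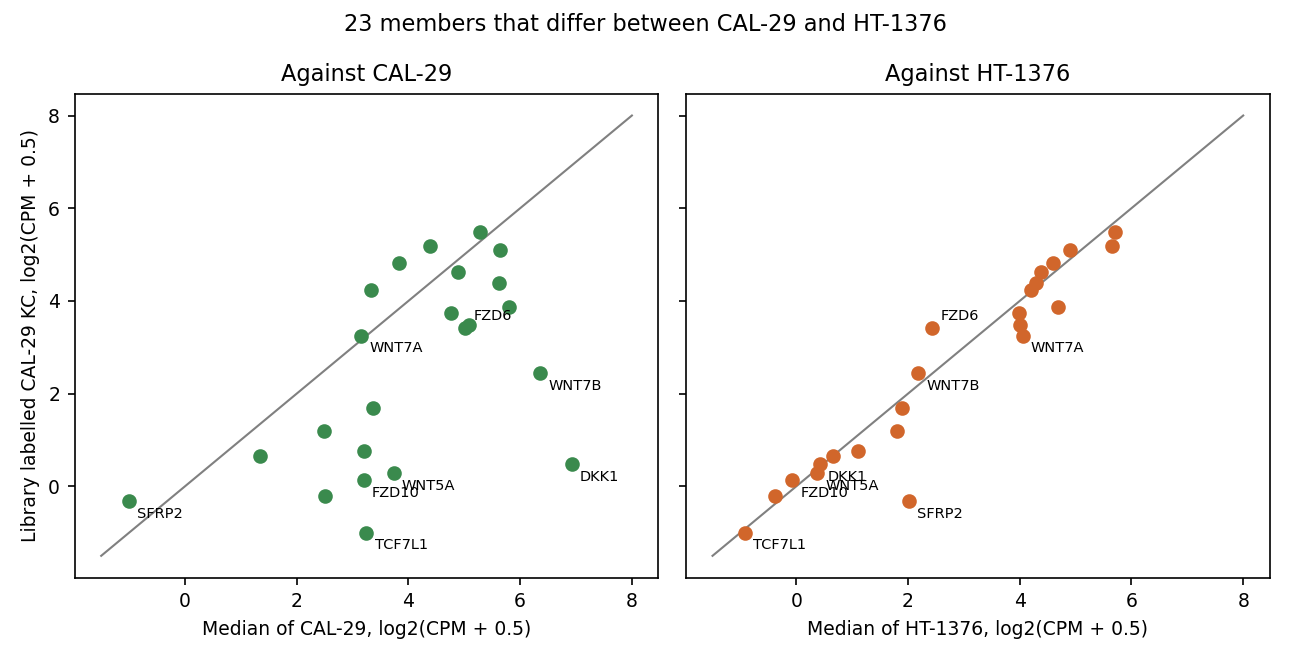
Each of the 23 members called between CAL-29 and HT-1376 as a point, with the library labelled CAL-29 KC on the vertical axis and the median of CAL-29 (left, 5 libraries) or HT-1376 (right, 6 libraries) on the horizontal axis, all as log2(CPM + 0.5). The points spread below the line of equality on the left, with DKK1 at 6.92 against 0.48, and lie close to it on the right.

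The second question was whether the vectors changed these genes when the lines serve as replicates. Each variant was compared with KK over all 18 libraries with limma, taking the lines as replicates with no term for the line. None of the 35 members was called in WK, KA, KC, WA or WC, against 0% of all genes in each, and no member had an unadjusted p under 0.05. An edgeR quasi-likelihood test on the recovered reads also called none and gave 1 member at an unadjusted p under 0.05, in WC against KK. With the line as a replicate block and without CAL-29 KC, edgeR again called no member, with between 1 and 4 at an unadjusted p under 0.05. How many of all genes fell under that unadjusted p was not determined.

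WNT4 had the smallest unadjusted limma p of the members in 3 of the 5 comparisons. Its differences from KK were 1.46 ± 0.88 (log2) in WK, 1.63 ± 0.88 in WA and 1.56 ± 0.88 in WC, with adjusted p of 1.00. In KA the smallest p values belonged to AXIN1 (0.40 ± 0.29) and WNT10A (-0.42 ± 0.30), and in KC to DVL1 (0.67 ± 0.57) and LRP5 (-0.87 ± 0.89). The fit has no line term, so the differences between lines enter these standard errors, and the 5 comparisons share the KK libraries.

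The size of the differences between KC and KK depended on the CAL-29 libraries. WNT7B, DKK1 and TCF7L1 differed by -1.80 ± 1.86, -1.74 ± 2.19 and -1.005 ± 1.59 (log2) with all lines, and these were the 3 members beyond -1, with 0 beyond 1. Without CAL-29 KC alone they became -1.20 ± 2.12, -1.28 ± 2.52 and -0.49 ± 1.82, with 3 members beyond -1 and 2 beyond 1. That fit keeps CAL-29 in KK, so the makeup of lines differs between the groups. Without either CAL-29 library (replicate 3) they became -0.75, 0.14 and 0.61, with 0 members beyond -1 and 4 beyond 1. No member was called in any of the 5 comparisons without CAL-29 KC, and none had an unadjusted limma p under 0.05.

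A fit with the line, WWOX, AP-2α and AP-2γ as additive terms over 17 libraries used every pair of libraries that differ in 1 vector. It called no member and 0% of all genes for any of the 3 vectors by limma. For WWOX 4 members had an unadjusted p under 0.05, whereas for AP-2α and AP-2γ there were 0, and edgeR called no member, with 6, 0 and 1 at an unadjusted p under 0.05. The 4 were WNT10A (0.44 ± 0.15, higher in 7 of 8 pairs), FZD8 (0.63 ± 0.22, 6 of 8), WNT4 (0.91 ± 0.33, 7 of 8) and DVL1 (0.34 ± 0.14, 6 of 8), with adjusted p from 0.302 to 0.359. Without the share of all genes at that unadjusted p, these counts have no background to be read against. DVL1 and AXIN1 were higher with AP-2α in 6 of 6 pairs, by 0.33 ± 0.16 and 0.30 ± 0.16 (limma, adjusted p = 1.00 each). FZD10 and DVL1 were higher with AP-2γ in 4 of 5 pairs, by 0.95 ± 0.46 and 0.31 ± 0.17 (adjusted p = 0.999 each).

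The genes of the β-catenin core showed no called response to a vector across lines. CTNNB1 differed by -0.44 ± 0.27 for WWOX, 0.43 ± 0.32 for AP-2α and 0.40 ± 0.34 for AP-2γ (log2), and GSK3B by -0.30 ± 0.25, 0.19 ± 0.29 and 0.10 ± 0.31, with limma adjusted p of at least 0.505.

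The third question was whether WWOX acted within a line. Here the 3 libraries labelled with WWOX were set against those without it, matched on the second vector. In HT-1376, 3 of the 35 members (8.57%) were called, against 9.75% of all genes (4.70% higher and 5.05% lower), so the members' share was close to the background. The share of all genes whose groups do not overlap was not determined in any line, so non-overlap given below only describes the libraries.

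WNT4 (chr1:22117313-22143969, − strand) measured 1.51, 5.79 and 14.8 CPM in HT-1376 KK, KA and KC and 18.9, 16.4 and 20.4 CPM in WK, WA and WC. The groups did not overlap, and the difference was 1.72 ± 0.46 (log2, limma, adjusted p = 0.0494). DKK1 measured 0.26, 0.85 and 0.35 CPM without WWOX, from 4, 15 and 5 reads, and 4.07, 2.88 and 0.82 CPM with it, from 71, 45 and 15 reads. KA and WC had nearly the same level, and the difference was 1.52 ± 0.38 (adjusted p = 0.0405).

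FZD5 (chr2:207762598-207769906, − strand), a Frizzled receptor of the intestinal epithelium, was the one called lower. It measured 44.5, 32.2 and 28.3 CPM in KK, KA and KC and 15.9, 19.9 and 15.3 CPM in WK, WA and WC, without overlap. The difference was -0.999 ± 0.25 (log2, limma, adjusted p = 0.0418).

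These calls depended on single libraries. Without HT-1376 KK, or without HT-1376 WK, none was called, and WNT4 went to 0.94 and DKK1 to 0.98 (log2). Without KC or WC, DKK1 and WNT4 were called. Without KA or WA, CTNNB1 (-1.76) and SFRP2 (1.41) were called in their place. TMM scaling called 6 members, 5 higher (DKK1, FZD7, FZD8, WNT16 and WNT4) and 1 lower (FZD5), and edgeR called DKK1, FZD5, FZD7, WNT11 and WNT4. For WNT11 only WC was high, at 84 reads, while WK and WA had 4 and 5 and KK, KA and KC had 1, 3 and 8.

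FZD7 measured 0.79, 1.25 and 1.21 CPM in HT-1376 KK, KA and KC and 2.81, 2.11 and 2.68 CPM in WK, WA and WC, without overlap, and missed the threshold of the main test (0.94 ± 0.27, limma, adjusted p = 0.0587). CTNNB1 measured 121, 112.2, 144, 37.6, 167 and 39.8 CPM in KK, KA, KC, WK, WA and WC. GSK3B measured 34.2, 52.3, 37.4, 15.8, 34.5 and 16.1 CPM in the same order. Both were thus low in WK and WC and not in WA. The TMM factors of WK and WC, 0.944 and 0.924, were the lowest of HT-1376, against 1.01 to 1.16 in the other libraries, and the part of this in the result was not tested.

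**Figure D5:**
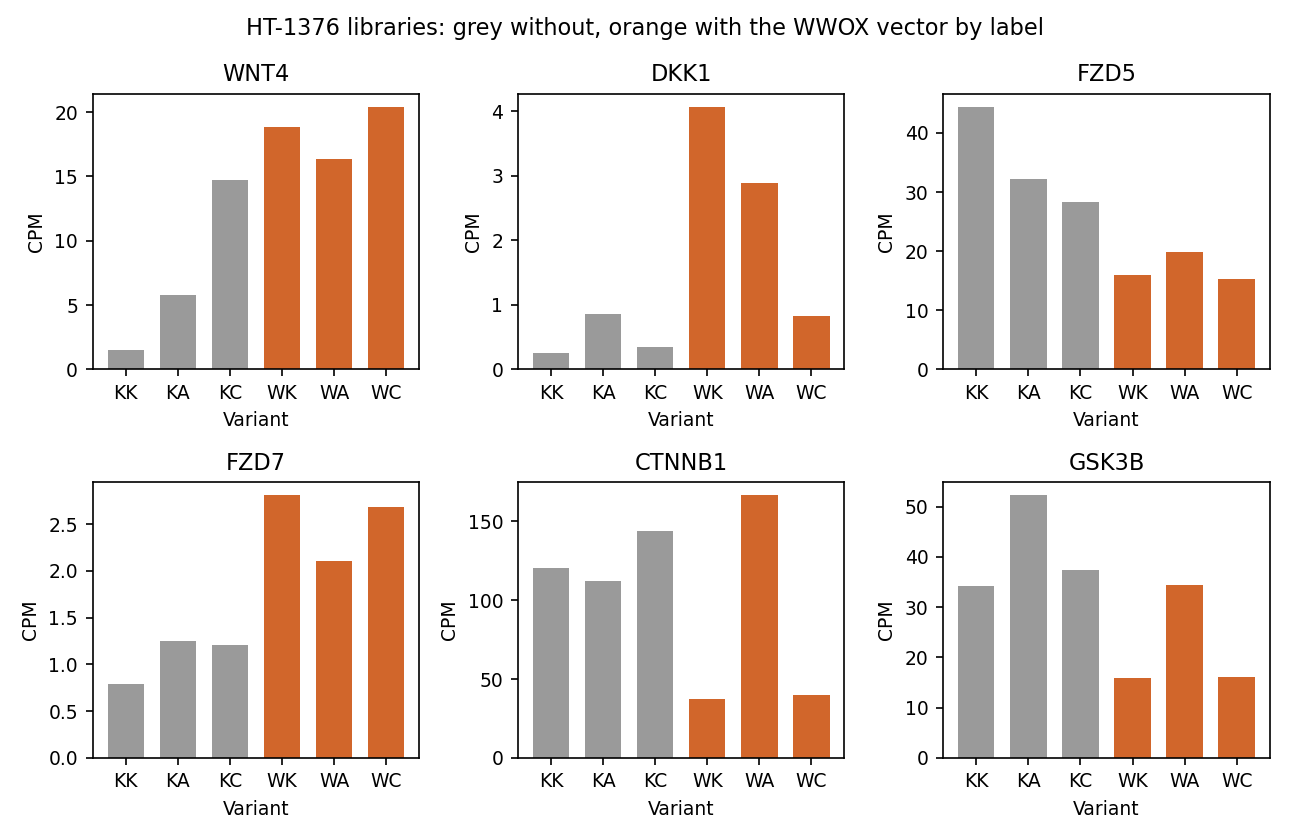
CPM (vertical axis) of 6 members in the HT-1376 libraries by variant (horizontal axis), 1 bar a library, grey for libraries labelled without and orange for those labelled with the WWOX vector. WNT4 and FZD7 are higher and FZD5 lower in all orange bars than in all grey ones, whereas CTNNB1 and GSK3B are low in WK and WC alone.

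Below the filter, LGR5, the R-spondin receptor of stem cells, measured 0, 0 and 0.07 CPM without WWOX and 0.92, 4.28 and 0.22 CPM with it in HT-1376. SFRP1 measured 0, 0.62 and 0 CPM without and 1.15, 3.77 and 1.42 CPM with it. Both were called when the filter was left out, at 1.70 and 1.86 (log2), as were DKK1 and FZD5.

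In RT-112 no member and 0% of all genes were called for WWOX by limma, with 7 members at an unadjusted p under 0.05, and edgeR also called none, with 7. No share of all genes at that unadjusted p was determined beside these counts. WNT10A measured 80.2, 65.1 and 72.2 CPM in KK, KA and KC and 96.4, 146 and 118 CPM in WK, WA and WC, and AXIN1 24.1, 25.7 and 25.0 CPM against 33.7, 38.5 and 39.8 CPM. Neither pair of groups overlapped, with differences of 0.71 ± 0.20 and 0.57 ± 0.18 (log2, limma, adjusted p = 0.471 and 0.512). WNT10A and AXIN1 were picked for the smallest p of the members, so their separation is no further support.

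In CAL-29 no member was called, against 0.730% of all genes (0.538% higher and 0.192% lower), with 10 members at an unadjusted p under 0.05, and edgeR called none, with 7. Here too the share of all genes at that unadjusted p was not determined. DKK3 measured 57.4 and 97.7 CPM in KK and KA and 9.5, 25.6 and 35.1 CPM in WK, WA and WC, a difference of -2.22 ± 0.53 (log2, limma, adjusted p = 0.122). FZD8 measured 4.2 and 4.31 CPM against 11.8, 9.76 and 17.1 CPM, a difference of 1.24 ± 0.30 (adjusted p = 0.125). Neither overlapped between the groups, but DKK3 and FZD8 were picked for the smallest p of the members, so this is no further support.

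The WWOX comparison in CAL-29 rests on the pairs KK with WK and KA with WA, and these did not move together. From the pair KA with WA alone (without KK or without WK) 4 members were called, FZD3 (1.62), FZD6 (2.94), GSK3B (1.30) and LRP6 (1.61). From the pair KK with WK alone 3 were called, FZD3 (-1.27), FZD8 (1.39) and WNT16 (-1.61), so FZD3 had opposite signs in the pairs. FZD6, a Frizzled receptor of planar polarity, measured 49.7, 9.95, 31.7, 79.8 and 13.7 CPM in KK, KA, WK, WA and WC. Its 3 high libraries, KK, WK and WA, had TMM factors of 1.51, 1.32 and 1.57, against 1.19 and 1.04 in KA and WC, and FZD3 and APC were also highest in these 3, and the part of this in the result was not tested.

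The difference of the WWOX effect between lines was tested for each gene with a moderated F test in limma. No member was called, against 2.90% of all genes, with 14 members at an unadjusted p under 0.05, and edgeR called none, also with 14. The share of all genes at that unadjusted p was not determined, so these counts are not read as a trait of the members. The adjusted p was 0.0836 for WNT16, 0.0899 for DKK3, 0.0932 for DKK1 and 0.104 for FZD5, so the calls in HT-1376 were not shown to differ from the other lines.

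Other pathway genes were called for WWOX in HT-1376 beside the 9.75% of all genes. Of 38 canonical regulators 1 was called higher and 3 lower (10.5%), namely KREMEN2, a Dickkopf receptor (1.15), and ANKRD6 (-2.64), TLE2 (-1.37) and FBXW11 (-1.27). Of 18 planar polarity and non-canonical genes 3 (16.7%) were called higher, PTK7 (1.70), MCC (1.89) and ROR2 (1.05), and none lower. ROR2 overlapped between the groups, with KC at 2.34 CPM above WK and WA at 0.86 and 0.7 CPM. Of 18 canonical targets 4 (22.2%) were called, of which SOX9 (2.85), EPHB2 (2.85) and BAMBI (1.90) were called higher and ASCL2 (-1.82) lower (log2, limma). The lists' medians were 0.00, 0.27 and 0.00, beside -0.13 over all genes. Like the members' calls, these depended on single libraries. Without HT-1376 KK or without HT-1376 WK, PTK7 alone was called of the 3 lists, and without KA or WA the calls were PTK7, SOX9 and BAMBI. Adding CAL-29 KC left none, beside 1.08% of all genes. It altered the shared spread and not the HT-1376 differences, which use no CAL-29 library. No gene of these lists was called for WWOX in RT-112 or CAL-29.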

How the data were processed

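Total RNA of 18 libraries was sequenced by the study as 75 nt single-end CAGE reads and mapped to hg38 with BWA, with HISAT2 2.0.5 for the remaining reads. The clusters of tags had been filtered by the study on reproducibility and length. How clusters were assigned to genes is not given in the sources used here. The authors deposited CPM per gene, and the CPM of 99.96% to 99.99% of genes per library were whole multiples of 1 read within 0.0051 CPM, from which reads were recovered. A table of 16575 genes held all libraries, of which 22 genes had no symbol in GENCODE release 44.

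CPM were analysed as log2(CPM + 0.5), for the 13022 genes that reached 5 CPM in any library, with limma 3.58.1 (trended empirical Bayes variance) in R 4.3.3 and two-sided tests adjusted by Benjamini-Hochberg over those genes. The study's voom step was not used, as the files hold CPM. Models were line with variant, variant alone with the lines as replicates (whether the study's model had a line term is not given in the sources used here), an additive fit of line, WWOX, AP-2α and AP-2γ, and WWOX and AP-2 within each line. Promoters came from the RefSeq tables on GRCh38.p14. Alternatives were pseudocounts of 0.05 and 2, no filter, TMM scaling, leaving out or adding libraries, the replicate block and edgeR 4.0.16 on recovered reads. Fits of the variants without CAL-29 KC and counts of the gene lists under other settings were chosen after seeing the data. Scripts were tested on simulated data.

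The replicates of a variant are the 3 lines, so the replicate number pairs libraries of the same line. Deviations from the variant means correlated between libraries of a line with r of 0.742 to 0.915 (RT-112), 0.588 to 0.896 (HT-1376) and 0.0363 to 0.881 (CAL-29). No 2 libraries agreed within sampling noise (smallest chi-square per degree of freedom 20.4). Nothing in the labels names separate cultures, so p-values measure the spread between these libraries, which may be partly technical.

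The members and gene lists were chosen with earlier results of these data known. The genes named were those the study's text names (WNT11, WNT16, TCF7L1, GSK3B and CTNNB1), the 6 called members with the largest non-overlapping difference in each pair of lines, the called members of each vector comparison or else the 2 with the smallest p, and the most abundant member of each role. FZD7, FZD8, FZD3, FZD6, LGR5, SFRP1 and other members named beside these were chosen after their values were seen.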

Additional observations from a re-analysis of the deposited data

Results flagged for a closer look

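Within the 6 libraries of a line, a library was marked where its gap to the nearest other exceeded the Dixon 95% limit of 0.625 of the range. Gap and range were taken on the log2 scale of the tests, whereas the levels below are given in CPM. Of 83 groups tested, 6 had such a library, and chance alone marks about 1 in 20 groups. The library labelled CAL-29 KC accounted for 4 of them. It was the lowest of the CAL-29 libraries for DKK1 (0.89 CPM, others 45.4 to 346 CPM), for FZD7 (1.19 CPM, others 6.3 to 9.93 CPM), for WNT7B (4.95 CPM, others 69.6 to 124 CPM) and for TCF7L1 (0 CPM, others 5.78 to 15.8 CPM).

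FZD2 was highest in CAL-29 WA, at 56.89 CPM, against 24.1 to 29.3 CPM in the other CAL-29 libraries. WNT4 was highest in RT-112 WK, at 24.29 CPM, against 11.8 to 15.0 CPM in the other RT-112 libraries.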

How the results depend on the processing

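The counts of members called between lines stayed within 1.5 times the reported counts under all alternatives, and the 18 line differences named kept direction and call in all 126 refits. No member was called in any comparison of a variant with KK or in the additive fit under any alternative, including the fits with the line as a replicate block (0 in each of WK, KA, KC, WA and WC), so the block changed no call there. Over all counts of called members 142 refits stayed within 1.5 times and 14 moved.

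For WWOX in HT-1376, 3 members were called. A pseudocount of 2 CPM gave 1, TMM scaling 6, edgeR 5, and adding the library labelled CAL-29 KC 0. Leaving out each HT-1376 library in turn gave 0 to 2, with 0 without KK or without WK, and leaving out the replicate block on the second vector gave 2. For WWOX in CAL-29, 0 members were called, leaving out each library gave 0 to 4, and no replicate block gave 1 (FZD8, 1.46). For the difference of the WWOX effect between lines the count went from 0 to 1 without the filter (SFRP1), to 1 under TMM scaling (WNT16) and to 1 with no replicate block (FZD8). No CAL-29 library enters the HT-1376 differences, so adding CAL-29 KC left those differences as they were and altered only the shared spread. With it, 1.08% of all genes were called for WWOX in HT-1376. The cause of the other changes was not tested. Refits of single members were counted only for those picked in each comparison by size or by smallest p. Of these, 369 refits kept direction and side of the threshold, 23 lost the call, 3 gained it and 0 reversed. Other values given above did change sign. These included DVL2 between RT-112 and CAL-29 under TMM scaling, and DKK1 and TCF7L1 in KC against KK without replicate 3.

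The HT-1376 calls for WWOX all had an adjusted p between 0.0405 and 0.0494 and rest on 3 libraries a side, with a residual spread pooled over the 3 lines. Members below about 0.2 CPM are at the floor of 3 reads, where fold changes depend on the pseudocount.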
